A study of Mus musculus with 2 samples.

Results

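The genes described here are 9 genes of glycogen synthesis and breakdown, measured in a calf muscle, the gastrocnemius, of 2 B6Cast F1 males, a first-generation cross of mouse strains. They were Gyg, Gys1 and Gbe1, which build the polymer, Pygm and Pygb, which break it down, Phka1 and Phkg1, which are subunits of phosphorylase kinase, and Ppp1r3a and Ppp1r3c, which direct protein phosphatase 1 to glycogen. Members were taken by gene symbol, by a rule that uses no measured value, and all 9 were found among 55536 annotated genes. Both mice were 25 days old, of strain B6CASTF1/J, and came from The Jackson Laboratory; no treatment or engineered allele is named in the labels. Each gave 1 total RNA library from 300 ng of RNA, with ERCC spike-ins of a profile for stranded libraries with reduced ribosomal RNA. The labels number the tissues as different males but give both the same donor entry. They form 1 group, so the values describe levels and the spread between the libraries, called animal 1 and animal 2.

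Glycogen is a branched store of glucose that muscle fibres draw on during contraction. Glycogenin starts each particle by attaching glucose to itself, glycogen synthase lengthens the chains, and the branching enzyme adds the branch points. Glycogen phosphorylase releases glucose 1-phosphate from the chain ends. Phosphorylase kinase, switched on by calcium and by protein kinase A, phosphorylates and activates phosphorylase. Protein phosphatase 1 reverses this and activates the synthase, and glycogen-targeting subunits bring it to the particle.

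Expected counts totalled 35098487 in animal 1 and 37428588 in animal 2, of which spike-ins took 0.543% and 0.573%. The 9 genes together held 0.736% of the counts in animal 1 and 0.753% in animal 2. Levels are given in TPM, a gene's share of all transcripts, corrected for transcript length and scaled to the same total in each library. All 6 markers of skeletal muscle fibres were present, with a summed level of 62217 TPM in animal 1 and 65970 TPM in animal 2. The 3 markers of fast IIB fibres summed to 20842 and 19735 TPM, and the 3 of slow fibres to 550.1 and 1050.4 TPM. The 2 hepatocyte markers summed to 0 and 0.090 TPM, the 2 neuronal markers to 0.18 and 0.11 TPM. The 3 cardiac markers summed to 58.6 TPM in animal 1 and 78.3 TPM in animal 2; nearly all of it was Myh6, with 58.5 and 78.2 TPM, while Nppa was at 0 in both.

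The phosphorylase gene Pygm stood far above the other 8. Pygm (ENSMUSG00000032648.14; mm10 chr19:6384399-6398459, plus strand), the muscle glycogen phosphorylase whose loss in humans causes McArdle disease, had 2429 TPM in animal 1 and 2699 TPM in animal 2. Its mean of 2564 ± 191 TPM (SD, n = 2) ranked 18 among 22015 nuclear protein-coding genes. It made up 74.9% of the 9 genes' summed TPM in animal 1 and 77.0% in animal 2. The brain-type phosphorylase Pygb (ENSMUSG00000033059.7; chr2:150786735-150831758, plus strand) had 1.84 and 1.56 TPM, a mean of 1.70 ± 0.198 TPM (SD, n = 2) and rank 9046. Pygl, the liver phosphorylase, had 0.39 and 0.32 TPM. Within the family, Pygm thus took 99.91% of the TPM in animal 1 and 99.93% in animal 2.

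The 3 phosphorylases carry the same regulatory serine near the start of the protein, the residue that phosphorylase kinase modifies, known best from the rabbit muscle enzyme. Their coding sequences around it are shown because they encode the residue on which the kinase described further on acts. Capitals mark the serine codon, at position 14 counted without the starting methionine, in GENCODE M21 transcripts.
Pygm-201: agaaagcaaatcAGCgttcgtggcttagcc
Pygb-201: cagaagcagatcAGCgtgcgtggcatcgcg
Pygl-201: cgacggcagatcAGCatccgaggcatcgtg

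All 3 stretches use the same serine codon, and the flanking bases differ between the genes. Over the whole coding sequence Pygm-201 and Pygb-201 were 77.3% identical, with a longest shared run of 62 bases, and Pygm-201 and Pygl-201 were 74.4% identical, with a longest shared run of 29 bases. Only 38 stretches of 31 bases were common to the Pygm-201 and Pygb-201 coding sequences, and none to those of Pygm-201 and Pygl-201. How reads from the shared stretches were assigned is not given in the sources used here. Pygb therefore carries an added uncertainty beside the high Pygm level. It had 1.84 and 1.56 TPM in the first quantification against 3.20 and 3.18 TPM in the second. The coding Pygb-201 had 1.72 and 1.39 TPM in the first against 2.20 and 1.70 TPM in the second. The noncoding Pygb-205 had 0 and 0.16 TPM against 0.994 and 0.809 TPM. Any part of the shared stretches in the difference between quantifications was not tested.

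**Figure D1:**
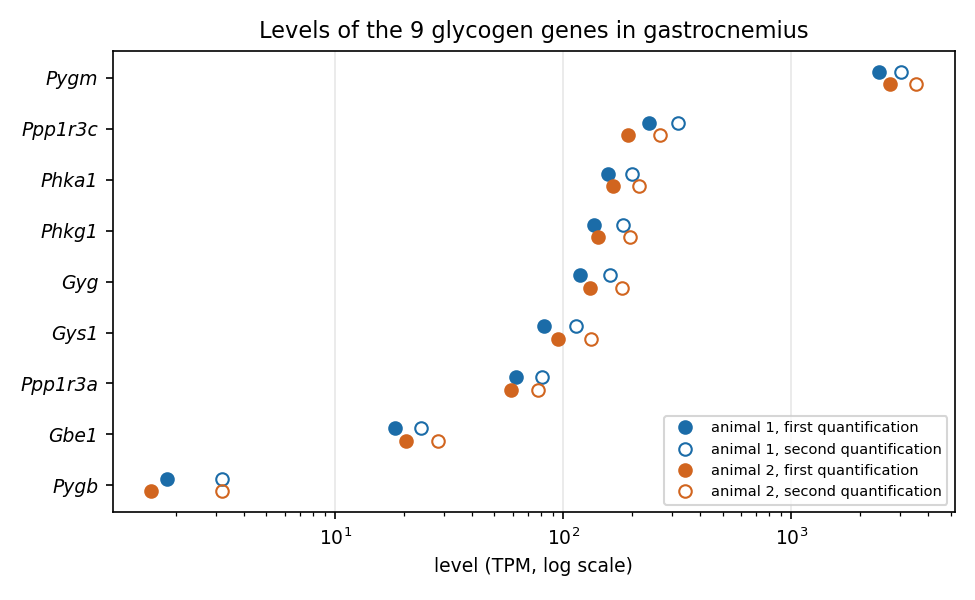
Levels of the 9 genes in TPM on a log axis, with filled points for the first quantification and open points for the second, animal 1 in blue and animal 2 in orange. Pygm lies at 2429 to 3544 TPM, the 7 genes from Ppp1r3c to Gbe1 between 18.3 and 320 TPM, and Pygb at 1.56 to 3.20 TPM.

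The promoters of Pygm and Pygb are shown because these genes encode the same activity at the ends of the range. The sequences are from RefSeq (GRCm38.p6), 250 bases before to 50 bases after the annotated start, chr19:6384158-6384457 for Pygm and chr2:150786546-150786845 for Pygb, both on the plus strand. Capitals mark CAGCTG, a form of the E-box (CANNTG) that myogenic bHLH factors are known to bind.
Pygm promoter: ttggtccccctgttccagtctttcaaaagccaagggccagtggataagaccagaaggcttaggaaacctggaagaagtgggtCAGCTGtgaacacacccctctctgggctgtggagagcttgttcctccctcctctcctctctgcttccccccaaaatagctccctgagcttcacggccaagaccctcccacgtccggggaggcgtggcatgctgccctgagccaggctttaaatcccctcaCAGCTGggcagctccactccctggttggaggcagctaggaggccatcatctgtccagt
Pygb promoter: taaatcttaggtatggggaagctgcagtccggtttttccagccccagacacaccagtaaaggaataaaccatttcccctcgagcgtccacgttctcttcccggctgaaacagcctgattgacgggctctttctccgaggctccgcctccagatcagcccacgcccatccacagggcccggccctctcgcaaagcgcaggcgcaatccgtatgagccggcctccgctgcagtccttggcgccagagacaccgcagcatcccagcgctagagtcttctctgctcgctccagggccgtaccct

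The Pygm window held 2 copies of CAGCTG and 3 of CANNTG, which includes the CAGCTG copies, while the Pygb window held 0 of either. Both motifs read the same on either strand. CpG dinucleotides numbered 4 in the Pygm window and 21 in the Pygb window, where the median over 32851 mouse promoters of the same length was 7. The other members held 26 (Ppp1r3c), 25 (Phka1), 22 (Gyg), 14 each (Gys1 and Gbe1) and 2 each (Phkg1 and Ppp1r3a). Ppp1r3c, Phka1 and Gyg held more CpG than Pygb, and a relation of CpG to level was not tested. All 9 genes matched a promoter in the table. CAGCTG occurred in 5 of the 9 (Pygm and Gys1 with 2 copies each, Phka1, Ppp1r3a and Ppp1r3c with 1 each) and in 16.3% of all promoters. CANNTG occurred in 8 of 9 and in 72.3% of all promoters. A match describes the letters of the window and is not a measured site.

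The synthesis genes were expressed at lower levels than Pygm, and in the same order in both animals. Gyg (ENSMUSG00000019528.18; chr3:20122084-20155317, minus strand), glycogenin-1, had 118 TPM in animal 1 and 131 TPM in animal 2 (125 ± 8.61 TPM, SD, n = 2; rank 357). Gys1 (ENSMUSG00000003865.16; chr7:45434844-45456619, plus strand), the muscle glycogen synthase, had 82.28 and 94.95 TPM (88.6 ± 8.96 TPM, SD, n = 2; rank 485). Gbe1 (ENSMUSG00000022707.16; chr16:70313949-70569716, plus strand), the branching enzyme, had 18.3 and 20.4 TPM (19.3 ± 1.44 TPM, SD, n = 2; rank 2142). The 3 genes did not overlap one another between the animals. Each was lower in animal 1 than in animal 2 by TPM. So was the median over all genes tested, at a log2 ratio of TPM, animal 1 over animal 2, of -0.11.

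Relative to one another, the levels were close between the animals. Pygm was 29.5 times the level of Gys1 in animal 1 and 28.4 times in animal 2 (26.7 in both by the second quantification). Gys1 was 0.695 and 0.727 times the level of Gyg, and 4.49 and 4.66 times that of Gbe1. The liver synthase Gys2 had 0 counts in animal 1 and 1 count in animal 2, at a floor of 3 counts or 0.0855 and 0.0802 CPM (counts scaled to library size), so all but 0.0105% of the family's TPM in animal 2 was Gys1. The Gys1 and Gys2 coding sequences were 65.6% identical. The Gys1 locus overlaps Ruvbl2 on the opposite strand by 3253 bases, and Ruvbl2 was at 8.55 and 9.10 TPM; strand use in the counting is not given in the sources used here.

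Of the other enzymes on the route, Ugp2, which makes the UDP-glucose that the synthase uses, had 127 TPM in animal 1 and 140 TPM in animal 2, or 1.54 and 1.47 times Gys1. Pgm1, phosphoglucomutase, which links glucose 1-phosphate and glucose 6-phosphate, had 366 and 403 TPM. By the second quantification Ugp2 was 1.75 and 1.77 times Gys1.

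**Figure D2:**
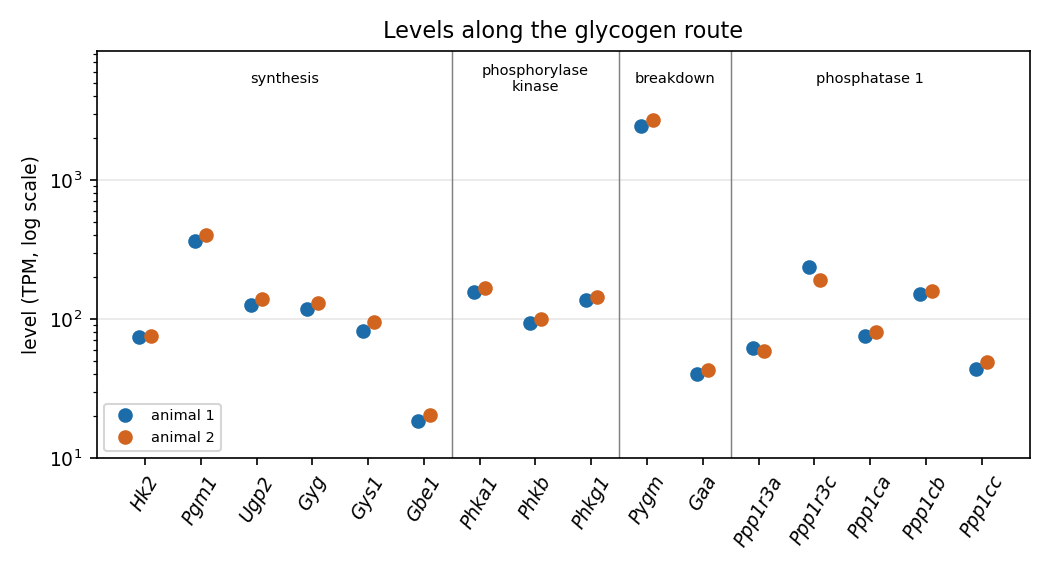
Levels in TPM on a log axis of 16 genes grouped as synthesis, phosphorylase kinase, breakdown and phosphatase 1, with animal 1 in blue left of animal 2 in orange. Pygm at 2429 and 2699 TPM is the highest of the genes drawn and Gbe1 at 18.3 and 20.4 TPM the lowest.

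The phosphorylase kinase genes stood at similar levels. Phka1 (ENSMUSG00000034055.16; chrX:102513975-102644246, minus strand), the muscle regulatory alpha subunit, had 157 TPM in animal 1 and 166 TPM in animal 2 (162 ± 6.16 TPM, SD, n = 2; rank 272). Phkg1 (ENSMUSG00000025537.12; chr5:129863421-129898549, minus strand), the muscle catalytic gamma subunit, had 137 and 143 TPM (140 ± 4.24 TPM, SD, n = 2; rank 314). Phkb, the beta subunit shared by muscle and liver, had 94.2 and 101 TPM. Phka1 was 1.15 and 1.16 times Phkg1, and 1.67 and 1.65 times Phkb.

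The liver-type subunits were low beside their muscle counterparts. Phka2 had 2.32 and 2.24 TPM, so Phka1 was at 67.8 and 74.2 times its level. Phkg2 had 2.85 and 3.20 TPM, so Phkg1 was at 48.0 and 44.6 times its level. Phka1 took 98.5% of its pair in animal 1 and 98.7% in animal 2, and Phkg1 97.96% and 97.81%. The Phkg1 gene span encloses Chchd2, a gene on the same strand at 197 and 229 TPM, and overlaps Sumf2 (2.03 and 3.30 TPM) and Zbed5 (0.21 and 0.42 TPM) on the opposite strand and Gm42790 (1.59 and 1.28 TPM) on the same strand. Apart from Phkg1 and Gys1, the other 7 members overlapped no annotated gene.

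Of 7 glycogen-targeting subunit genes of protein phosphatase 1, Ppp1r3c and Ppp1r3a held nearly all the TPM. Ppp1r3c (ENSMUSG00000067279.3; chr19:36731731-36736653, minus strand), also called protein targeting to glycogen, had 237 TPM in animal 1 and 192 TPM in animal 2 (214 ± 31.8 TPM, SD, n = 2; rank 187). Ppp1r3a (ENSMUSG00000042717.5; chr6:14713977-14755274, minus strand), the striated muscle subunit known as GM, had 62.1 and 58.8 TPM (60.5 ± 2.33 TPM, SD, n = 2; rank 685). Ppp1r3c took 78.2% of the family's TPM in animal 1 and 75.3% in animal 2, and Ppp1r3a took 20.5% and 23.1%.

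Ppp1r3c was 3.81 times the level of Ppp1r3a in animal 1 and 3.26 times in animal 2, and 3.96 and 3.41 times by the second quantification. The other subunits were low. Ppp1r3d had 1.43 and 1.12 TPM, Ppp1r3e 1.31 and 1.17 TPM, Ppp1r3f 0.86 and 1.22 TPM, and the liver-enriched Ppp1r3b 0.21 and 0.47 TPM. Ppp1r3g had 0 counts in animal 1 and 1 count in animal 2, under the same floor of 3 counts. Of the catalytic subunits they bind, Ppp1cb was the highest, with 150 TPM in animal 1 and 159 TPM in animal 2.

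**Figure D3:**
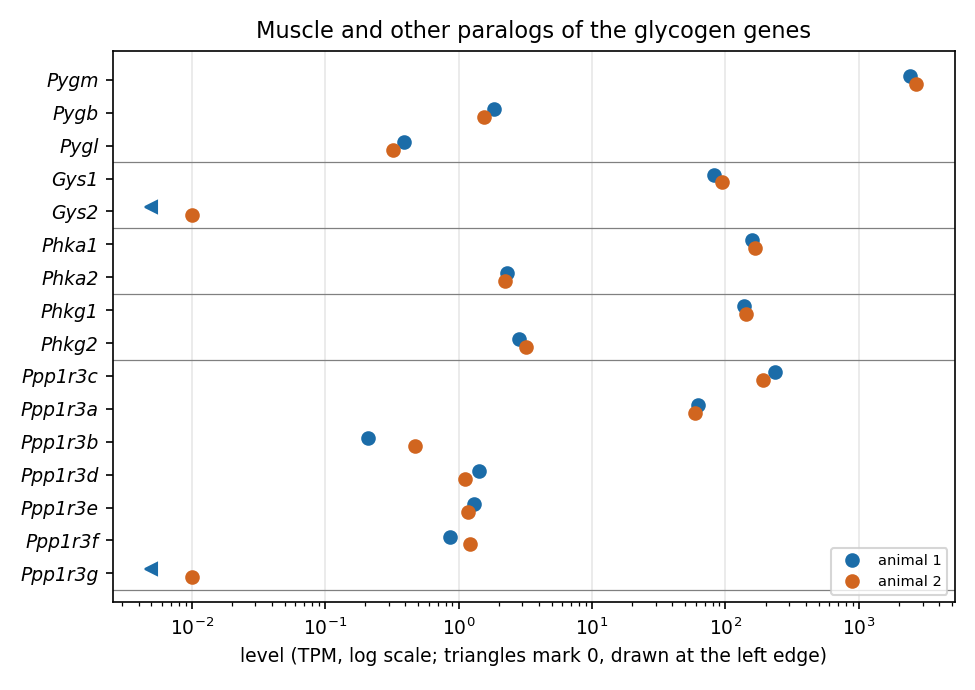
Levels in TPM on a log axis of the members and their paralogs, 5 families separated by lines, animal 1 in blue and animal 2 in orange, with triangles for a level of 0. In 4 families 1 muscle gene stands above the others, from 44.6 times (Phkg1 over Phkg2 in animal 2) upward, whereas Ppp1r3c at 237 and 192 TPM and Ppp1r3a at 62.1 and 58.8 TPM share the fifth.

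Ordered by level, the 9 genes ran Pygm, Ppp1r3c, Phka1, Phkg1, Gyg, Gys1, Ppp1r3a, Gbe1 and Pygb. The order was the same in each animal by either quantification, so the mean over the animals had to give it too. For each of the 8 neighbouring pairs, the lower animal of the higher gene stayed above the higher animal of the lower gene. The closest pairs were Phkg1 over Gyg, with 182.4 against 181.0 TPM in the second quantification, and Phka1 over Phkg1, with 199.95 against 197.0 TPM. With 2 animals, no exact test of a level can go below p = 0.5. Of the members, 7 were in the top 5% of nuclear protein-coding genes.

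The libraries differed little in the member genes. No member was called, where a call needed more than a 2-fold ratio together with an adjusted p below 0.05 in the exact binomial test of scaled counts; 1.74% of the 14754 genes tested were called. At an unadjusted p under 0.05 there were 6 members, 0 of them over 2-fold. All genes were not counted at that unadjusted p, so this number has no background beside it. This test compares the 2 libraries, with counting error only, and says nothing of a condition. By the adjusted p alone 5 of the 9 members passed, against 14.1% of all genes, 22.4% of nuclear genes for proteins with a mean of at least 5 TPM and 46.4% of those with at least 50 TPM. Passing members were higher in animal 1 in 4 cases, against 7.59% of all genes, and lower in 1 case, against 6.49%. The median log2 ratio, animal 1 over animal 2, was 0.056 for the members and 0.0023 for all genes tested, and the median absolute log2 ratio was 0.095 and 0.14. That absolute median was 0.090 for nuclear genes for proteins with at least 5 TPM and 0.075 for those with at least 50 TPM.

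The targeting subunits gave the larger ratios among the members that passed. Ppp1r3c had 17947 counts in animal 1 and 15399 in animal 2, a log2 ratio of 0.42 (95% counting interval 0.39 to 0.45; adjusted p = 3.9e-155, exact binomial test with Benjamini-Hochberg adjustment), or 1.34-fold. Ppp1r3a had 12303 and 12338 counts, a log2 ratio of 0.20 (0.16 to 0.23; adjusted p = 3.7e-25, same exact test). Both stayed higher in animal 1 under every scaling tried, at 0.30 to 0.42 for Ppp1r3c and 0.079 to 0.20 for Ppp1r3a. Gys1 had 8158 and 10025 counts and was lower in animal 1, with a log2 ratio of -0.095 (-0.14 to -0.053; adjusted p = 1.7e-04, same exact test), and -0.21 to -0.095 over the alternatives.

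For the 2 other members past the adjusted p, the direction depended on the scaling. Pygm had 182713 and 202264 counts and a log2 ratio of 0.056 (0.046 to 0.065; adjusted p = 7.0e-31, exact binomial test), but -0.054 by library totals and -0.15 by the ratio of TPM. Phkg1 had 7861 and 8337 counts and 0.12 (0.073 to 0.16; adjusted p = 5.2e-06, same exact test), but -0.062 by the ratio of TPM. Against the scaling used here, library totals shifted the median log2 ratio of nuclear genes for proteins with at least 5 TPM to -0.11 and the ratio of TPM shifted it to -0.12, where it was -0.0038. Relative to those medians Pygm stood above by library totals and below by TPM.

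The remaining 4 members did not pass. Phka1 had 22347 and 25337 counts and a log2 ratio of 0.021 (-0.0049 to 0.047), which turned to -0.010 by the spike-ins. It passed as lower in animal 1 by library totals (-0.089; adjusted p = 5.0e-10, exact binomial test) and by the ratio of TPM (-0.078; adjusted p = 6.5e-08, same exact test). Gyg had 5458 and 6393 counts and -0.026 (-0.078 to 0.026), and Gbe1 1419 and 1717 counts and -0.073 (-0.18 to 0.030). Pygb, on only 191 and 165 counts, had 0.41 (0.11 to 0.72) with an adjusted p of 0.056 in the exact binomial test. Its interval was the widest of the 9.

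Markers of other cells and of fibre types also differed between the libraries. All 3 slow fibre markers were lower in animal 1, their median log2 ratio being -0.80, and Myh7, the slow myosin heavy chain, had 230 TPM in animal 1 and 395 TPM in animal 2. The 3 Schwann cell markers summed to 21.2 and 50.2 TPM, the 3 fibroblast markers to 998 and 595 TPM, mostly from Col1a1 with 864 and 469 TPM, and the 3 endothelial markers to 28.0 and 36.5 TPM. Smooth muscle markers summed to 35.4 and 46.7 TPM, adipocyte markers to 11.4 and 6.36 TPM, macrophage markers to 7.39 and 6.12 TPM and erythroid markers to 395 and 373 TPM. Their part in the member ratios was not tested. In a whole muscle, fewer cells of a type and less RNA per cell cannot be told apart.

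**Figure D4:**
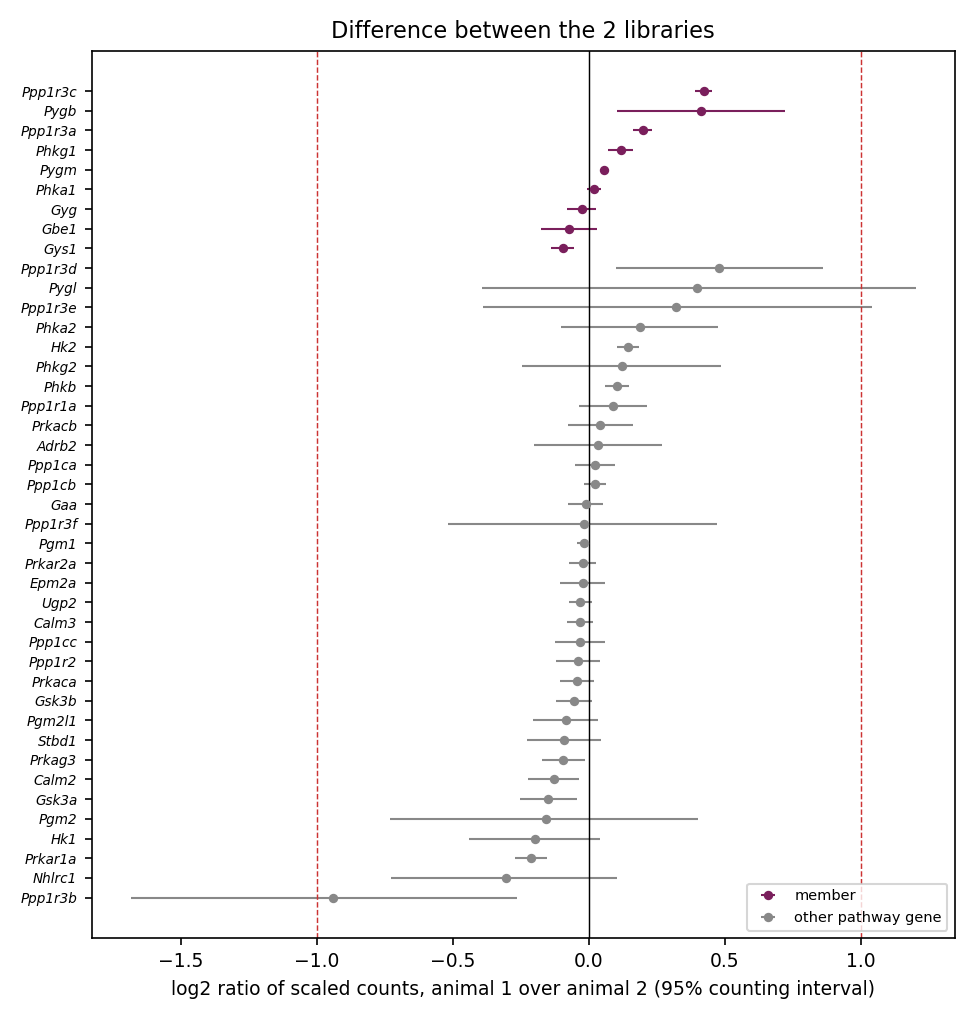
Log2 ratio of scaled counts, animal 1 over animal 2, with 95% counting intervals, for the 9 members (purple) and 33 tested genes of the wider pathway list (grey); dashed lines mark 2-fold. Members lie between -0.095 (Gys1) and 0.42 (Ppp1r3c), and the lowest grey point is Ppp1r3b at -0.94.

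Among 37 other genes of the pathway (enzymes, kinase and phosphatase subunits, upstream kinases, laforin and malin), 35 had counts enough to test. By the adjusted p alone 3 were higher in animal 1, 5 were lower and 27 did not pass. Of all genes tested, 7.59% passed as higher, 6.49% as lower and 14.1% in either direction. Among nuclear genes for proteins with a mean of at least 5 TPM, 22.4% passed. None of the 35 was called, against 1.74% of all genes tested. At an unadjusted p under 0.05 there were 10, again with no count over all genes beside it. The median log2 ratio of the 35 was -0.022. Those higher included Hk2, a hexokinase, with 0.14 and Phkb with 0.10. Those lower included Prkar1a, a regulatory subunit of protein kinase A, with -0.21, the synthase kinase Gsk3a with -0.15, Calm2 with -0.13, and Ppp1r3b with -0.94 on 26 and 58 counts. Genes other than those of the member families and the 4 highest were named here after their values were seen.

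At the transcript level, 41 transcripts are annotated to the 9 genes, and 14 of them are of the retained-intron type. The leading transcript was the same in both animals and both quantifications for 6 genes and differed for Gyg, Gbe1 and Phka1. Ppp1r3a and Ppp1r3c have 1 transcript each. Gys1-201 held 94.9% of the gene's TPM in animal 1 and 95.8% in animal 2, and 97.4% and 98.6% by the second quantification.

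Pygm-201, a coding transcript of 20 exons and 2874 bases, led its gene with 92.9% of the TPM in animal 1 and 86.2% in animal 2 (95.3% and 87.0% by the second quantification). Most of the rest was Pygm-203, a retained-intron transcript of 532 bases near the 3′ end of the gene (chr19:6397495-6398291), which held 6.53% in animal 1 and 13.2% in animal 2, or 3.99% and 12.3% by the second quantification. Only 83 of its bases lie outside the exons of Pygm-201, so only reads over those bases set it apart. Pygm-203 was at 159 TPM on 1982 expected counts in animal 1 and at 356 TPM on 4715 expected counts in animal 2. Its log2 ratio of scaled counts was -1.05, where that of Pygm-201 was 0.075.

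This split bears on the gene's TPM. By the first quantification Pygm as a whole was 270 TPM higher in animal 2. Pygm-203 made up 198 TPM or 73.1% of that difference. Pygm-201, with 2255 TPM in animal 1 and 2326 TPM in animal 2, made up 70.8 TPM or 26.2%. By the second quantification Pygm-201 had 2890.5 TPM in animal 1 and 3084.5 TPM in animal 2, and Pygm-203 had 121.0 and 436.4 TPM.

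Phka1 was divided among 3 transcripts. Phka1-201 held 34.8% of the TPM in animal 1 and 36.0% in animal 2, Phka1-202 33.3% and 33.9%, and the retained-intron Phka1-207 31.1% and 28.9%. By the second quantification Phka1-201 held 33.7% and 31.6%, Phka1-202 33.5% and 38.4%, and Phka1-207 28.9% and 27.0%. The coding transcripts Phka1-201 and Phka1-202 differ by 1 exon of 177 bases, exon 19 of 33 in Phka1-202 (chrX:102557096-102557272, minus strand), which is 59 codons long and keeps the frame. In rabbit, the fast-muscle alpha subunit is known to contain a segment that the slow-muscle and heart form, alpha′, lacks. The exon is shown because it is what separates the main coding forms, read 5′ to 3′ from GENCODE M21 transcripts.
Phka1 exon: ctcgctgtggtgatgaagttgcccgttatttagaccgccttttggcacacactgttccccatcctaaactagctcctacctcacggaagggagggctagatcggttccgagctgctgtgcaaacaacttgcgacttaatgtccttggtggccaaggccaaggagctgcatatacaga

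Transcripts with this exon held 65.2% of Phka1 TPM in animal 1 and 64.0% in animal 2, a mean of 64.6% ± 0.793 (SD, n = 2), and 66.3% and 68.4% by the second quantification. Over the protein-coding transcripts alone the share was 49.4% in both animals, and 52.6% and 56.7% by the second quantification. The share including Phka1-207 is higher because that transcript also carries the exon. Both animals thus had coding Phka1 with and without the exon at about equal levels in the first quantification.

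**Figure D5:**
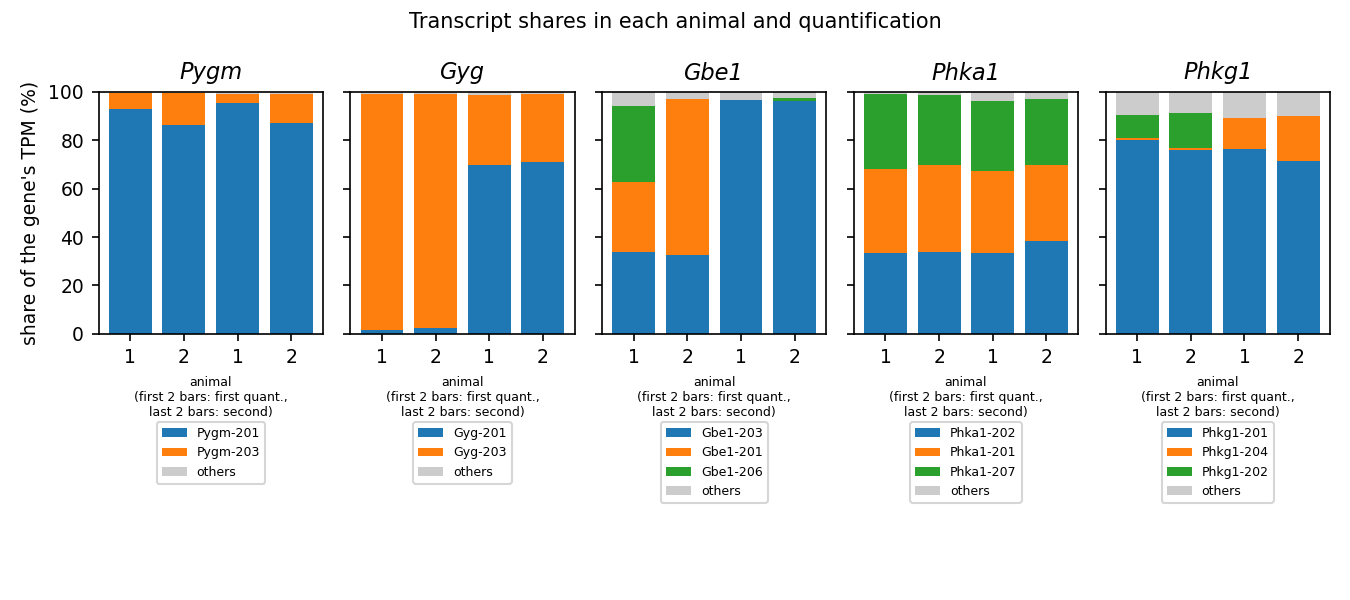
Share of each gene's TPM by transcript for Pygm, Gyg, Gbe1, Phka1 and Phkg1, in percent, with bars for animal 1 and animal 2 by the first quantification and then by the second. Pygm-203 takes 6.53% in animal 1 and 13.2% in animal 2, and the leading Gyg transcript changes from Gyg-203 (97.8% and 96.9%) to Gyg-201 (69.9% and 70.9%) with the quantification.

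The leading transcript differed between the quantifications for Gyg in both animals and for Gbe1 and Phka1 in animal 2. In animal 1 Gbe1-203 led Gbe1 by both. Gyg-203 held 97.8% in animal 1 and 96.9% in animal 2 by the first quantification but 28.8% and 28.4% by the second, which gave 69.9% and 70.9% to Gyg-201. Gyg-201 has 224 bases that Gyg-203 lacks and no base is particular to Gyg-203; their coding lengths are 1131 and 999 bases. For Gbe1, the first quantification gave Gbe1-203 33.6% and 32.5%, Gbe1-201 29.2% and 64.6%, and Gbe1-206 31.6% and 0%. The second gave Gbe1-203 96.5% and 96.2%, Gbe1-201 0% in both and Gbe1-206 0% and 1.18%. These 3 transcripts have the same coding length, 2106 bases.

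Phkg1-201 led its gene with 80.1% in animal 1 and 76.1% in animal 2, and 76.5% and 71.6% by the second quantification. The short coding transcripts Phkg1-202 and Phkg1-204 traded places, at 9.53% and 14.6% for Phkg1-202 and 0.77% and 0.72% for Phkg1-204 in the first quantification, and at 0% in both and 12.8% and 18.3% in the second. Pygb-201 held 93.2% and 89.6% of the little Pygb present, or 68.9% and 53.5% by the second quantification. The rest of Pygb fell to the noncoding Pygb-203, Pygb-204 and Pygb-205 on fewer than 3 expected counts each in the first quantification, and in the second Pygb-205 took 31.1% and 25.5%, Pygb-203 0% and 10.3%, and Pygb-204 0% and 10.7%.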

How the data were processed

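Total RNA-seq of gastrocnemius from 2 mice, 1 library each and 1 group, was analysed from deposited gene and transcript tables. The authors' first tables hold expected counts, TPM and the percent of each gene taken by each transcript, in the columns RSEM writes, per the file headers. Per the file headers, a further transcript table deposited by the authors has kallisto's columns, with estimated counts and TPM; it is called the second quantification. Text deposited beside the tables gives mm10 and GENCODE M21 as references. The sources used here give no tool version, aligner or strand setting, and the tables do not separate parental alleles.

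The rule for the members uses gene symbols alone, but they and the lists were chosen with earlier results of these data known. The rule named all 9 members, the pathway genes of their families, any called between the libraries, the 4 with the highest mean TPM, and member transcripts at 10% or more of a gene; 2 pathway genes are counted but not reported here by name. Expected counts were rounded and scaled by TMM (edgeR 4.0.16, R 4.3.3). With 1 library per animal, an exact conditional binomial test (scipy 1.17.1, two-sided, doubled tail) was run on the 14754 genes whose counts summed to at least 20, with Benjamini-Hochberg adjustment over all of them and a prior count of 0.5 for ratios. Intervals are 95% Clopper-Pearson and, like the floor of 3 counts, cover counting error only. Spread between the libraries may be technical. The test was checked on simulated data drawn with counting error alone, so the check does not cover technical spread or spread between animals. Promoters are from RefSeq, transcript sequences from GENCODE M21. Alternatives were other scalings (median-ratio factors, library totals, spike-ins, the ratio of TPM), count filters, the second quantification and, for levels, posterior mean TPM and TPM rescaled to nuclear protein-coding genes.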

Additional observations from a re-analysis of the deposited data

How the results depend on the processing

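No member was called under any of the 7 alternatives. The number past the adjusted p alone was 5, and 5 to 7 under the alternatives except the ratio of deposited TPM, which gave 8. Splits moved with the scaling: 4 higher and 1 lower in animal 1 became 2 and 5 by library totals and 2 and 6 by the ratio of TPM; over all genes, 53.9% of those past the adjusted p were higher in animal 1, against 17.2% and 20.3% under those settings and 40.7% with spike-in scaling. Over all genes, 256 were called, against 442 by the ratio of TPM and 119 with a summed count of 100 or more; 2078 passed the adjusted p alone, against 3469 by library totals and 4604 by the ratio of TPM. The members' median log2 ratio was 0.056, and -0.054 by library totals, -0.078 by the ratio of TPM, 0.024 with spike-ins and 0.043 in the second quantification.

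Log2 ratios that changed sign were those of Pygm, Phka1 and Phkg1. Pygm had -0.054 by library totals and -0.15 by the ratio of TPM. Phka1 had -0.089 by library totals, -0.010 with spike-ins and -0.078 by the ratio of TPM. Phkg1 had -0.062 by the ratio of TPM. Library totals and spike-ins each apply a single factor to all genes, so each shifts every log2 ratio by the same amount. The ratio of TPM applies a factor per gene, and the cause of its sign changes was not tested. Pygb passed the adjusted p with a summed count of 100 or more and in the second quantification, Gyg, Gbe1 and Phka1 by library totals and the ratio of TPM, and Phkg1 no longer by library totals. Mean levels moved beyond 1 SD in 19 comparisons and not in 26. The 26 include the levels with 1 animal left out, which with 2 animals cannot move beyond 1 SD. Rescaling to nuclear protein-coding genes raised all 9 (Pygm to 6449 TPM, Pygb to 4.29 TPM). The second quantification raised all 9 (Pygm to 3289 TPM, Pygb to 3.19 TPM). Posterior mean TPM moved Pygb alone, to 2.23 TPM. The second quantification put the Pygm share of its family at 99.89%, and the mean share of Phka1 with the alternative exon at 67.4%; alternatives over coding transcripts alone gave 49.4% and 54.7%, and were chosen after seeing the data. No paired analysis was possible because the samples form 1 group. Depth limits genes that rest on few counts, among them Pygb, Pygl, Gys2, Phkg2 and the Ppp1r3 genes other than Ppp1r3a and Ppp1r3c.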
